A study of Mus musculus with 12 samples.

Results

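The genes described here encode the enzymes that make heme in the liver, from Alas1 to Fech, and those that begin to take it apart, Hmox1 and Blvrb. They were chosen by name: 9 of the 48537 genes of the deposited table, with 7 enzymes of synthesis and 2 of breakdown. All 9 had a mean of at least 1 TPM over the 12 livers and were tested. TPM is each gene's share of the RNA, corrected for its length and scaled to 1 total per library, so levels of different genes can be set side by side.

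Heme is built from glycine and succinyl-CoA in a chain that starts and ends in mitochondria and passes through the cytosol. Its first step, by ALAS1 in liver, sets the rate, and heme itself holds that step back. Most liver heme goes into cytochrome P450 enzymes. Heme oxygenase, the product of Hmox1, opens the ring to biliverdin, which biliverdin reductases turn into bilirubin. Heme is also the ligand of the REV-ERB receptors, clock repressors encoded by Nr1d1 and Nr1d2, and its binding favours recruitment of their corepressor.

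The samples were mouse livers taken at zeitgeber time 10, which is 10 h after lights on, with 4 livers in each of 3 groups. Control livers have the genotype wildtype and name YFP in their titles. DKO-labelled livers have a double knockout of the REV-ERB genes and also name YFP. Re-expressing livers have that knockout and re-express REV-ERBalpha, named REV-ERBalpha-WT. The table's columns are named YFP for control, YFP_Cre for DKO-labelled and YFP_WT for re-expressing livers. Effects of Cre itself cannot be told apart from those of the knockout. Which cells were recombined, which part of each gene was deleted, and the age and sex of the mice are not given in the sources used here. Each library held between 5621667 and 6906221 reads, recovered from the TPM steps. Nr1d1 stood at 68.7 ± 5.53 TPM in control livers, 82.5 ± 7.39 in DKO-labelled livers and 191 ± 22.4 in re-expressing livers (SD, n = 4). Nr1d2 stood at 96.6, 90.4 and 97.7 TPM. Gene totals do not check the knockout, since exons that were not deleted still give reads, so the group is called by its label. Arntl, a clock gene that REV-ERB represses, stood at 0.728 ± 0.205, 19.8 ± 1.27 and 15.1 ± 1.09 TPM. The 8 hepatocyte markers summed to between 41598 and 48625 TPM in each liver. Between DKO-labelled livers and control livers 5 of them had a difference above 0 and 3 below 0. Limma called 2 higher in DKO-labelled livers, Ttr and Cps1, and 0 lower, beside 5.33% of all tested genes called in either direction. Albumin RNA (Alb), the most abundant of the 8, went down. Its mean dropped from 23338 to 20148 TPM without overlap of these groups, and it was not called. Apoa1, Ttr and Cps1 were higher without overlap, so the groups did not overlap for 4 of the 8. Of 6 markers of sinusoidal endothelium limma called 0, with a median difference of 0.31 on the log2 scale between DKO-labelled livers and control livers. All 6 had a difference above 0. The groups did not overlap for 3 of the 6, and for 11.5% of all tested genes.

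Promoter sequences from RefSeq on build GRCm38.p6, reaching from 250 bases before to 50 bases after each start, matched 7 of the 9 genes by symbol, with 11 promoters in all because some genes have more than 1 start. Shares of all promoters count each start, while a gene is counted once if any of its starts matched. AGGTCA, the core of the element that REV-ERB binds, was on neither strand in any of the 7, and 16.3% of all 32851 promoters held it. The D-box TTATGNAA (3.38% of all promoters) and the antioxidant element TGACNNNGC (12.4%) were also not found in these windows, nor was the TATA box TATAAA (13.6%). The GATA site AGATAA (11.2%) was found in 1 of the 11 promoters, that of Cpox. On its reverse strand AGGTCA can overlap the antioxidant element. The E-box CACGTG, a palindrome bound by BMAL1 and CLOCK, was found for 3 of the 7 genes, Alad, Urod and Uros, in 4 of the 11 promoters, and in 7.15% of all promoters. GCATGCGC, the core bound by the respiratory factor NRF1, was found for Alas1, in 2 of the 11 promoters, and in 2.71% of all promoters. The windows of these 2 Alas1 starts overlap and hold the same site, so it is counted in both. It lies 29 bases after the first start and 195 bases before the second. Of 12 other called genes of the lists described later that had a promoter in the table, 2 held this core, Clpx, which encodes a partner of ALAS, and Ppara, and 4 held AGGTCA, namely Cyp2a5, Gstm1, Nr1h4 and Tdo2. A 10-base form of the core was searched first and also matched Alas1. These matches describe the letters in the windows and were not tested as binding sites, and the windows shown were chosen after the matches were seen. For the NRF1 core and the E-box of the heme genes, and for Clpx as the largest change among the listed genes, the 30 bases that hold the match are shown, 5′ to 3′ on the gene's strand with the motif in capitals. They lie at chr9:106247906-106247935 (minus strand) for Alas1, chr9:65294163-65294192 (plus strand) for Clpx, chr4:62520151-62520180 and chr4:62519920-62519949 (minus strand) for the pair of Alad starts, chr4:116994445-116994474 (minus strand) for Urod and chr7:133709516-133709545 (minus strand) for Uros.
Alas1: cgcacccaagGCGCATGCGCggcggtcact
Clpx: ttagtctccacGCATGCGCagcgtaaactc
Alad, first start: gctccgaatgccCACGTGgaccccctcggg
Alad, second start: ccgccccgccccCACGTGggcttgcgcttt
Urod: cactggatcggtCACGTGgttctcaatatg
Uros: CACGTGtgctttctcacctcgtccacgatt
In Alas1 the core matches on both strands and the matches overlap, which gives the longer run of capitals. The Uros match is at the far edge of its window, 250 bases before the start.

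In DKO-labelled livers, Uros alone of the 9 genes was called different from control livers, and it was higher. Alas1 had the largest difference of means, with a mean 1.98-fold lower, but it was not called, and 1 of the DKO-labelled livers stood near the control level. The remaining synthesis genes, Alad, Urod, Cpox, Ppox and Fech, differed by at most 0.09 on the log2 scale. A gene was called where limma's Benjamini-Hochberg adjusted p, taken over all 17957 tested genes, was under 0.05. Of the 9 genes 1 was called, and 5.33% of all tested genes were called in this comparison. The values of the groups did not overlap for 2 of the 9, Uros and Alas1, and for 11.5% of all tested genes. The median difference was 0.05 over the 9 genes and 0.00 over all genes.

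**Figure D1:**
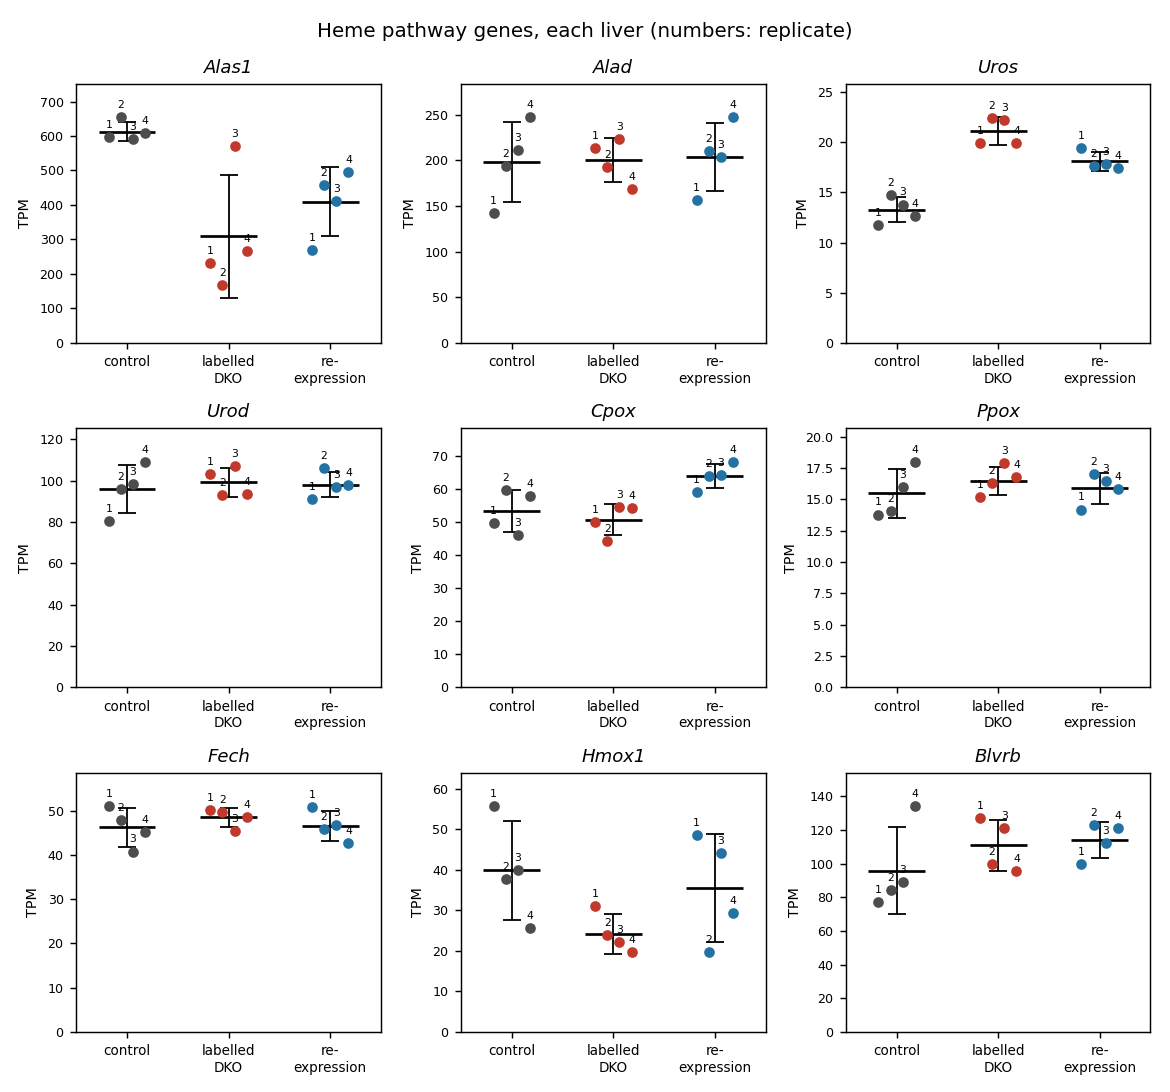
TPM of each of the 9 heme genes (vertical axes, linear from 0) in control livers, DKO-labelled livers and re-expressing livers. Points are single livers with their replicate number, horizontal lines are means and bars are SD (n = 4). Uros separates control livers from both other groups, while Alas1 in replicate 3 of the DKO-labelled livers sits at 572 TPM, just under the lowest control liver at 592 TPM.

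Alas1 encodes the enzyme that joins glycine and succinyl-CoA, the first and rate-setting step. It lies on chromosome 9, 106233455 to 106248654, minus strand (build mm10), and overlaps the gene model 4930500F10Rik on the other strand. The control livers held 597, 654, 592 and 609 TPM. The DKO-labelled livers held 232, 168, 572 and 266 TPM. The re-expressing livers held 268, 459, 412 and 496 TPM.

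The control livers were thus close together for Alas1, and 3 of the 4 DKO-labelled livers stood far below them. The coefficient of variation was 4.61% in control livers, 58% in DKO-labelled livers and 24.4% in re-expressing livers. The difference between DKO-labelled livers and control livers was -1.14 ± 0.31 in log2(TPM + 1) (SE), with a 95% interval from -1.81 to -0.46. It was not called (limma adjusted p = 0.0569). Without replicate 3 of the DKO-labelled livers the difference was -1.49 and was called (adjusted p = 0.00302). It was also called with a mean of at least 5 TPM (0.0413), with quantile normalization (0.0387) and with voom on the recovered reads (0.0162), and adjusted p ran from 0.00302 to 0.144 over 22 alternatives. An exact two-sided permutation test on the TPM values, run for the 9 genes in all 3 comparisons, gave p = 0.0286 here. That is the smallest p that 70 assignments of 8 livers allow, and it was also reached by Alas1 between re-expression and control livers, by Uros in all 3 comparisons and by Cpox between re-expressing livers and DKO-labelled livers. In the authors' deposited table the log2 fold change was -0.98 with an adjusted p of 0.0716.

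For Alas1 the re-expressing livers had a mean between those of the other groups, and they overlapped the DKO-labelled livers. Their difference from DKO-labelled livers was 0.52 ± 0.31 (SE, 95% interval -0.15 to 1.19, adjusted p = 0.95). It was 0.28 without replicate 2 and 0.87 without replicate 3 of the DKO-labelled livers. Their difference from control livers was -0.62 ± 0.31 (95% interval -1.29 to 0.06, adjusted p = 0.457), although the highest of them, at 496 TPM, was under the lowest control liver. Both comparisons share livers with the first one, so they are not independent of it.

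Alas1 made up most of the RNA of the synthesis genes in every control liver, and less in the other groups. Over the 7 synthesis genes the summed RNA was 945, 1080, 1018 and 1099 TPM in control livers, and Alas1 made up 63.1%, 60.6%, 58.1% and 55.4% of it. In DKO-labelled livers the sum was 684, 586, 1042 and 668 TPM, with Alas1 at 33.9%, 28.6%, 54.9% and 39.8%. In re-expressing livers the share was 40.7%, 50%, 48.1% and 50.3%. All 8 livers of the last 2 groups were below the lowest control share. The ratio of Alas1 to Alad, the next gene of the pathway, was 3.21 ± 0.767 in control livers, 1.52 ± 0.752 in DKO-labelled livers and 1.98 ± 0.199 in re-expressing livers (SD, n = 4). The first 2 groups overlapped (exact two-sided permutation p = 0.0571). Re-expressing livers did not overlap control livers (exact permutation p = 0.0286, the smallest that 70 assignments allow). After adjustment over the 12 tests made of 4 such ratios, these p-values were 0.114 and 0.0857. The ratios were chosen after the values were seen.

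Uros encodes uroporphyrinogen III synthase, which closes the ring in its physiological isomer. It lies on chromosome 7, 133686243 to 133710072, minus strand. The control livers held 11.8, 14.7, 13.8 and 12.7 TPM. The DKO-labelled livers held 19.9, 22.4, 22.2 and 19.9 TPM, and the re-expressing livers 19.4, 17.6, 17.8 and 17.4 TPM. Every liver of the last 2 groups was above every control liver, and every re-expression liver was below every liver labelled DKO.

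Uros rose 1.59-fold in mean TPM in DKO-labelled livers, by 0.63 ± 0.09 on the log2(TPM + 1) scale (SE, limma adjusted p = 0.00149). This call held in all 22 alternatives, with adjusted p from 0.000765 to 0.0118. The authors' deposited table gave 0.67 with an adjusted p of 1.5e-06. Uros was also 36.1% higher in mean TPM in re-expressing livers than in control livers (0.42 ± 0.09, SE, adjusted p = 0.0306), and was the 1 gene of the 9 called there, where 1.82% of all tested genes were called. That second call failed in 9 of 22 alternatives, on omitting control liver 1, 3 or 4 or any re-expressing liver, with the 8 libraries alone and with the replicate block (adjusted p from 0.0532 to 0.106). Each library held between 94 and 178 reads of Uros.

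Bccip starts inside Uros on the opposite strand, and the genes overlap by 740 bases. No source used here gives the strand setting of the counting. Reads of the shared stretch may have been assigned to either gene. Bccip itself stood at 70.8 TPM in control livers and 83 in DKO-labelled livers, a difference of 0.24 ± 0.10 (SE, adjusted p = 0.211).

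Ppox and Uros had the lowest RNA of the 9 genes, and their order differed between groups. Uros over Ppox was 0.858, 1.04, 0.863 and 0.707 in control livers and 1.31, 1.38, 1.24 and 1.18 in DKO-labelled livers. The groups did not overlap (exact two-sided permutation p = 0.0286, and 0.0857 after adjustment over the 12 ratio tests). In re-expressing livers it was 1.37, 1.04, 1.07 and 1.1. That group overlapped control livers (exact permutation p = 0.0571, and 0.114 after the same adjustment). Uros over Urod was 0.139 ± 0.0158, 0.214 ± 0.0204 and 0.185 ± 0.0199 in control, DKO-labelled and re-expressing livers (SD, n = 4). Neither of the last 2 groups overlapped control livers (exact permutation p = 0.0286 each, and 0.0857 each after the same adjustment). Alas1 over Hmox1 overlapped in all comparisons, at 16.6 ± 5.45, 13.5 ± 8.73 and 13.7 ± 7.87.

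RNA of red blood cells, which also carry heme synthesis enzymes when young, was measured beside these values. Their 11 markers in the table, of 12 listed, summed to 283.5 to 389.5 TPM in control livers, 407.5 to 693.2 in DKO-labelled livers and 377.9 to 840.7 in re-expressing livers. None of the list was at 0 in all livers, 7 were tested and 0 were called in any comparison (limma), with a median difference of 0.72 between DKO-labelled livers and control livers. Hbb-bs, a beta globin gene, stood at 106 ± 38.5 and 221 ± 60.7 TPM in these groups, and Alas2, the red cell form of the first enzyme, at 97.2 ± 12.1 and 118 ± 12.1 TPM (SD, n = 4). Of the 7 tested markers 6 had a difference above 0 between these groups and 1 below 0, Klf1, at 5.4 and 4.45 TPM. Of all tested genes limma called 5.33% (DKO-labelled against control), 0.0724% (re-expressing against DKO-labelled) and 1.82% (re-expressing against control). The part of red cell RNA in the difference of Uros was not tested. In whole tissue, fewer cells of a type and less RNA per cell cannot be told apart.

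**Figure D2:**
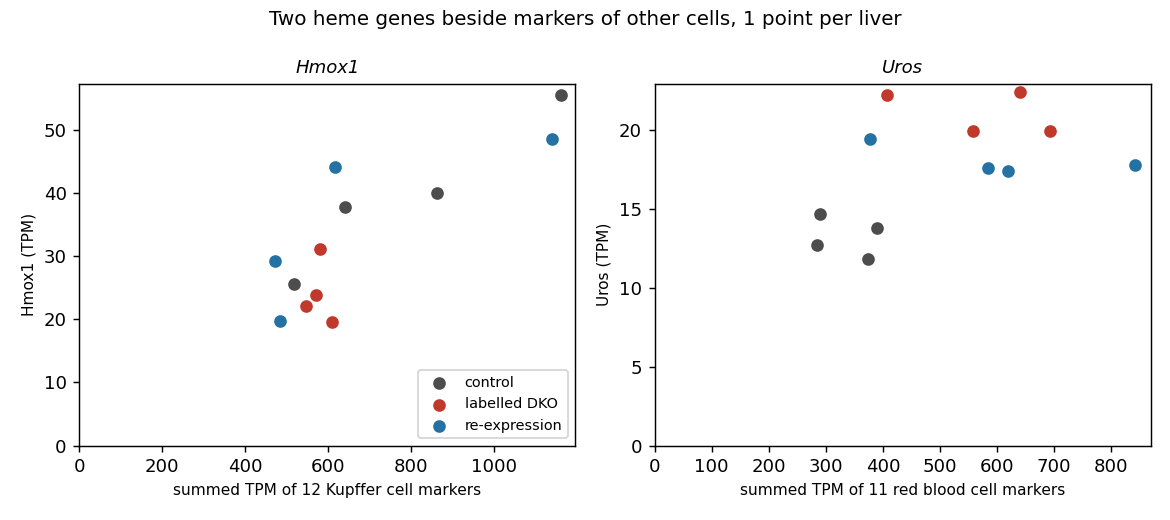
Hmox1 against the summed TPM of 12 Kupffer cell markers (left) and Uros against the summed TPM of 11 red blood cell markers (right), with 1 point for each of the 12 livers and linear axes from 0. The control liver with the most Hmox1, 55.6 TPM, has the highest Kupffer cell sum of its group, 1162 TPM. The re-expressing liver with the most Hmox1, 48.6 TPM, also has the highest sum, 1140 TPM. Most of its single markers are the highest of its group, but Clec4f and Cd163 are the lowest. The DKO-labelled liver with the highest sum of its group, 610 TPM, has the least Hmox1 there, 19.6 TPM.

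Alad, the enzyme that makes porphobilinogen (chromosome 4, 62509169 to 62519918, minus strand), held 142, 194, 211 and 247 TPM in control livers, 214, 193, 223 and 169 in DKO-labelled livers and 157, 210, 204 and 247 in re-expressing livers. The groups overlapped throughout. The difference between DKO-labelled livers and control livers was 0.03 ± 0.17 (SE, 95% interval -0.35 to 0.41, adjusted p = 0.957), so changes within that interval are not excluded. Urod, which removes carboxyl groups from the ring (chromosome 4, 116989965 to 116994413, minus strand), had a narrower interval. It ranged from 80.6 to 109 TPM in control livers, 92.8 to 107 in DKO-labelled livers and 91 to 106 in re-expressing livers, and differed by 0.05 (95% interval -0.15 to 0.25) in the first comparison.

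Ppox, the oxidase of the last step but one (chromosome 1, 171275990 to 171281186, minus strand), and Fech, which inserts the iron (chromosome 18, 64452914 to 64490251, minus strand), had overlapping ranges in all groups. Ppox stood at 15.5 ± 1.94, 16.5 ± 1.11 and 15.9 ± 1.23 TPM, and Fech at 46.3 ± 4.37, 48.6 ± 2.15 and 46.6 ± 3.31 TPM in control, DKO-labelled and re-expressing livers (SD, n = 4). Between DKO-labelled livers and control livers the 95% intervals were -0.12 to 0.31 for Ppox and -0.11 to 0.25 for Fech. Ppox overlaps B4galt3 by 907 bases on the opposite strand.

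Cpox, the mitochondrial oxidase before Ppox (chromosome 16, 58670292 to 58717636, plus strand), differed most between re-expressing and DKO-labelled livers in unadjusted p. Control livers held 49.7, 59.5, 46.1 and 57.7 TPM and DKO-labelled livers 50, 44.3, 54.5 and 54.1 TPM. Re-expressing livers held 59.1, 63.7, 64.2 and 68.1 TPM, all above every liver labelled DKO and overlapping the control livers. The difference from DKO-labelled livers was 0.33 ± 0.10 (SE, 95% interval 0.11 to 0.54), which limma did not call after adjustment (unadjusted p = 0.00591, adjusted p = 0.408, from 0.312 to 0.763 over the alternatives).

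In that comparison of re-expressing livers with DKO-labelled livers, 0 of the 9 genes were called by limma, and 0.0724% of all tested genes were. At an unadjusted p under 0.05 there were 2 of the 9, Cpox and Uros, and 6.19% of all tested genes. Voom on the recovered reads also called 0 of the 9. The groups did not overlap for these same 2 genes, and for 4.25% of all tested genes. Uros stood 0.21 ± 0.09 lower (SE, adjusted p = 0.726), Alas1 0.52 higher and Hmox1 0.47 higher, with 95% intervals that reached below 0 for Alas1 and Hmox1. For Hmox1 the difference was 0.30 without re-expressing liver 1 and 0.71 without re-expressing liver 2. Of the 9 genes 0 had an adjusted p under 0.05 here in the authors' deposited table, and 0.495% of the 14539 genes with such a value did. Re-expressing livers and control livers did not overlap for Uros and Alas1, and for 7.28% of all tested genes.

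**Figure D3:**
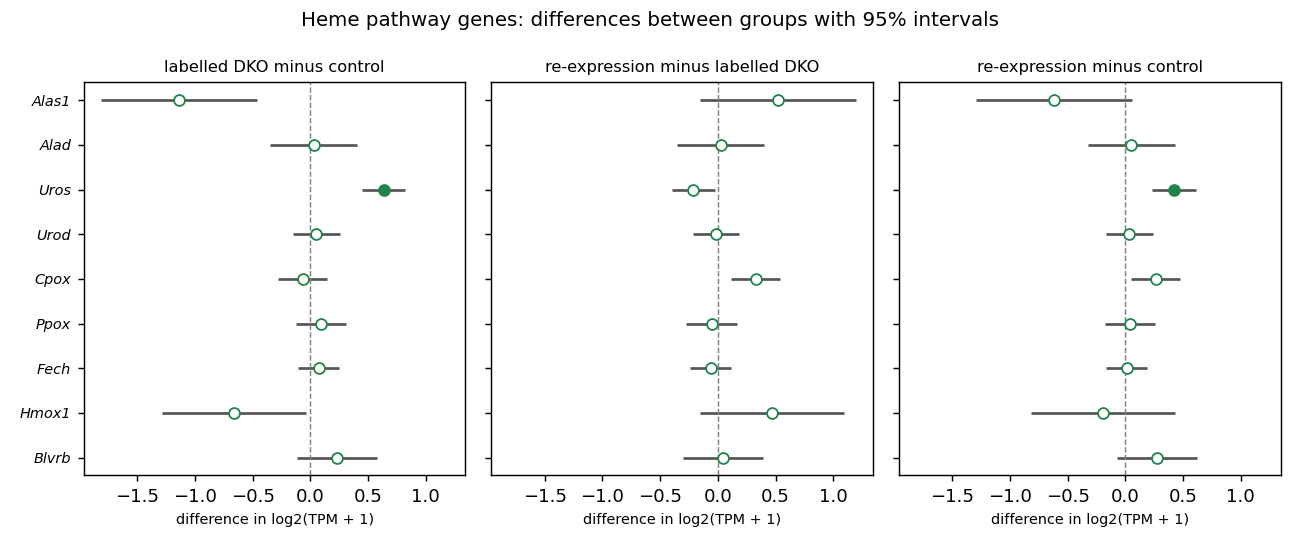
Difference in log2(TPM + 1) between groups for each of the 9 heme genes, with its 95% interval (limma, 12 livers). Filled points passed an adjusted p of 0.05. Uros is filled in both comparisons with control livers, and Alas1 has the lowest value, -1.14, and a wide interval in the first panel.

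Hmox1 encodes the inducible heme oxygenase and is strongly expressed in Kupffer cells, the liver macrophages that clear red blood cells. It lies on chromosome 8, 75093621 to 75100589, plus strand. Control livers held 55.6, 37.8, 40 and 25.6 TPM, DKO-labelled livers 31.1, 23.8, 22.2 and 19.6 TPM and re-expressing livers 48.6, 19.8, 44.2 and 29.2 TPM. The groups overlapped, and the re-expressing livers spanned almost the whole range of the others. Mean Hmox1 was 1.64-fold lower in DKO-labelled livers than in control livers, with a difference of -0.66 ± 0.28 (SE, limma adjusted p = 0.241, from 0.105 to 0.476 over the alternatives). The authors' deposited table gave -0.71 with an adjusted p of 0.0428. In this comparison 2 of the 9 genes, Uros and Hmox1, passed 0.05 by the authors' deposited table, as did 9.19% of its 16343 genes with an adjusted p.

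Kupffer cell markers were measured beside Hmox1. All 12 listed markers were tested, 0 were called in any comparison (limma) and none was at 0 in all livers. Of all tested genes 5.33%, 0.0724% and 1.82% were called, in the order of comparisons given for the red cell markers. Between DKO-labelled livers and control livers all 12 had a difference below 0, with a median of -0.41, and the groups overlapped for all 12. Their sum was 1162, 642, 864 and 519 TPM in control replicates 1 to 4, 581, 570, 548 and 610 TPM in DKO-labelled livers and 1140, 485, 617 and 473 TPM in re-expressing livers. In re-expressing replicate 1 most of these markers were the highest of that group. Cd5l, Marco and Adgre1 stood at 372, 231 and 125 TPM there. Vsig4, Timd4, Spic, Csf1r, C1qa and C1qb were also the highest there. Clec4f and Cd163 were the lowest, at 41.7 and 7.33 TPM, and C1qc lay between. The part of these cells in the difference of Hmox1 was not tested.

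Blvrb encodes biliverdin reductase B, which also reduces flavins (chromosome 7, 27447978 to 27466144, plus strand). It stood at 95.9 ± 25.6 TPM in control livers, 111 ± 15.1 in DKO-labelled livers and 114 ± 10.5 in re-expressing livers (SD, n = 4), with overlapping groups. Its difference between DKO-labelled livers and control livers was 0.23 ± 0.16 (SE, 95% interval -0.12 to 0.58). Control replicate 4, at 134 TPM, was the highest liver of all 12 for this gene. The difference was 0.40 without that liver (adjusted p = 0.0777) and 0.14 without control replicate 1 (adjusted p = 0.772).

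By level, Alas1 stood first and Alad second in all 3 groups, followed by Blvrb and Urod, whose ranges overlapped in each group. Cpox, Fech and Hmox1 came next, and Ppox and Uros last. Ranges of Alas1 and Alad overlapped in DKO-labelled livers, where the lowest Alas1 value of 168 TPM was under the lowest Alad value of 169 TPM, and not in the other groups. In control livers Ppox stood above Uros with overlapping ranges, and in the other groups Uros stood above Ppox and their ranges did not overlap.

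Within groups some of these genes varied together. After each group's mean was taken away, the log2 values of Alad and Urod had a Pearson r of 0.87 over the 12 livers, Urod and Blvrb 0.87, and Alad and Blvrb 0.83. Alad and Fech went opposite ways, with an r of -0.75, and so did Ppox and Hmox1, with -0.74. In control livers Alad, Urod and Blvrb were each lowest in replicate 1 and highest in replicate 4. The same libraries supply every point, and TPM values within a library share 1 total, so these figures are descriptions only. With group means left in, the tested genes whose log2 levels followed Alas1 most closely over the 12 livers were Ctif (r = 0.933), Lonrf1 (0.923) and Rapgef4os3 (0.92). Those closest to Uros were D630024D03Rik (r = 0.974), Kctd17 (0.971) and Lgals9 (0.963). The r values of these named genes include differences between the groups.

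Other enzymes of these steps had overlapping groups in all comparisons. Hmox2, the constitutive heme oxygenase, stood at 47.9, 52 and 49.7 TPM in control, DKO-labelled and re-expressing livers, and Blvra, the main biliverdin reductase, at 14.1, 15.4 and 15.5 TPM. With Alas2 these made 3 genes, of which limma called 0 in any comparison, beside 5.33%, 0.0724% and 1.82% of all tested genes. Alas2 differed by 0.28 ± 0.12 between DKO-labelled livers and control livers (SE, adjusted p = 0.214).

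Of 21 tested genes for heme and porphyrin transport and partners of ALAS, 2 were called higher and 1 lower in DKO-labelled livers. Their median difference was 0.03. Over all tested genes 5.33% were called in this comparison. The largest difference of the list was in Clpx, which encodes the unfoldase of a mitochondrial protease. CLPX is known to help load the cofactor of ALAS and, with its protease, to degrade ALAS1 when heme is plentiful. Control livers held 69.9, 62.1, 48.9 and 52.5 TPM of Clpx and DKO-labelled livers 347, 398, 376 and 340 TPM, a 6.26-fold difference of means. Re-expressing livers held 264, 234, 273 and 265 TPM, which lay between the other groups without overlap.

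Clpx (chromosome 9, 65294260 to 65330658, plus strand) rose by 2.64 ± 0.11 in DKO-labelled livers (SE, limma adjusted p = 8.46e-08) and was 2.14 ± 0.11 higher in re-expressing livers than in control livers (adjusted p = 8.4e-07). Both calls held in all 22 alternatives. Between re-expressing livers and DKO-labelled livers the difference was -0.49 ± 0.11 (SE, 95% interval -0.73 to -0.26) and was not called (adjusted p = 0.176). A gene model on the opposite strand, Gm16218, overlaps Clpx by 388 bases and stood at 9.06 TPM in controls and 59.8 TPM in DKO-labelled livers (adjusted p = 0.00362), so reads of the shared stretch may be split between them. Clpx was high in all DKO-labelled livers, and replicate 3, with Alas1 at 572 TPM, held 376 TPM of it. A link between the RNA of Clpx and that of Alas1 was not tested.

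Fam210b, a mitochondrial gene tied to heme synthesis in red cell precursors, stood at 67.7 ± 3.85, 99 ± 1.85 and 76.1 ± 2.52 TPM (SD, n = 4). It rose by 0.54 ± 0.06 in DKO-labelled livers (SE, adjusted p = 0.000259), a call that held in all 22 alternatives. It was lower by a called 0.37 in re-expressing livers than in DKO-labelled livers (adjusted p = 0.0484), which failed in 12 of 22 alternatives: on omitting any of the 8 livers compared, or control liver 1 or 3, with the replicate block and with a robust prior (adjusted p up to 0.17). The third called gene was the hemoglobin scavenger gene Hp, which was lower. Omitting control liver 1 or 3, or DKO-labelled liver 2, 3 or 4, ended that call (adjusted p from 0.051 to 0.0615). The heme scavenger gene Hpx held 5813 to 9818 TPM in control livers and 4547 to 5429 TPM in DKO-labelled livers (adjusted p = 0.0705, not called). Abcg2, an exporter of porphyrins, stood at 49.8 and 64 TPM in these groups (adjusted p = 0.0962), and Flvcr2, of a family of heme and choline transporters, at 7.26 and 3.85 TPM (adjusted p = 0.106).

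Of 12 regulators of Alas1 and partners of its products, 3 were called lower and 0 higher in DKO-labelled livers, with a median difference of -0.09. Over all tested genes 5.33% were called there in either direction. Por encodes the reductase that feeds electrons to cytochrome P450 and heme oxygenase. It held 351, 324, 411 and 491 TPM in control livers and 252, 255, 272 and 195 TPM in DKO-labelled livers, and fell by 0.69 ± 0.14 (SE, adjusted p = 0.0189). That call was lost without DKO replicate 4 (0.0529) and with the 8 libraries alone (0.0514). Gm16061 overlaps Por by 857 bases on the opposite strand and stood at 28.1 and 13.9 TPM in these groups. Nr1h4, the gene of the bile acid receptor FXR, which is known to induce ALAS1, stood at 299 ± 46.3 and 207 ± 5.99 TPM (SD, n = 4) and fell by 0.52 (adjusted p = 0.0173), lost without DKO replicate 1 (0.0507). The third was Ppara, a receptor gene of the fasting response, which fell by 0.67 and kept its call in all 22 alternatives. Ppargc1a, the coactivator that induces Alas1 in fasting, held 8.93, 8.19, 7.29 and 5.37 TPM in control livers and 5.19, 4.12, 4.29 and 4.56 TPM in DKO-labelled livers (adjusted p = 0.112, not called). Hnf4a, a master factor of hepatocytes, stood at 448 and 500 TPM in these groups (adjusted p = 0.225), and Rxra, the partner of several nuclear receptors, at 254 and 213 TPM (adjusted p = 0.299). In re-expressing livers 1 of the 12 was called against control livers, where 1.82% of all tested genes were called. This was the xenobiotic receptor gene Nr1i3, higher by 0.32. It failed in 12 of 22 alternatives, including the omission of control liver 2 or 3, of DKO-labelled liver 1 or 2 and of any re-expressing liver.

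Bach1 encodes the repressor of Hmox1 that heme itself removes from DNA. Control livers held 67.6, 57.5, 46.6 and 75.4 TPM and DKO-labelled livers 31.6, 26.1, 42.6 and 28.3 TPM, without overlap. It fell by 0.92 ± 0.19 (SE, adjusted p = 0.0154), a call lost in 1 of 22 alternatives, with the replicate block (0.0519). Re-expressing livers held 35.8, 49.5, 33.9 and 33.3 TPM. Bach1 and Hmox1 thus both stood lower in DKO-labelled livers, Bach1 by a difference that limma called and Hmox1 by one that it did not. For Hmox1 the adjusted p in the authors' deposited table was 0.0428. Of the 16 tested genes of the NRF2 and BACH1 list, 1 was called higher and 1 lower, beside 5.33% of all tested genes. The median of the list was -0.01. The higher one, Gstm1, has close copies in the genome, and its call failed in 11 of 22 alternatives, including the omission of control liver 1, 3 or 4, of DKO-labelled liver 1, 2 or 4 and of re-expressing liver 2, 3 or 4. In re-expressing livers Gclc, of glutathione synthesis, was the 1 called against control livers, where 1.82% of all tested genes were called. Gclc was higher by 0.85. It failed in 17 of 22 alternatives, including the omission of any liver other than control liver 2. Gsta1, which has close copies too, had the largest difference of the list and was not called (-1.72 ± 0.50, SE, adjusted p = 0.0758). It held 13.2, 28.8, 3.02 and 9.07 TPM in control livers and 2.55, 2.81, 2.88 and 1.78 TPM in DKO-labelled livers, without overlap. Gclc was at 305 and 461 TPM in these groups (adjusted p = 0.102) and Mafg, a DNA-binding partner of NRF2 and BACH1, at 46.2 and 37.5 TPM (adjusted p = 0.152). Nfe2l2, Keap1 and the classical target Nqo1 were not called.

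**Figure D4:**
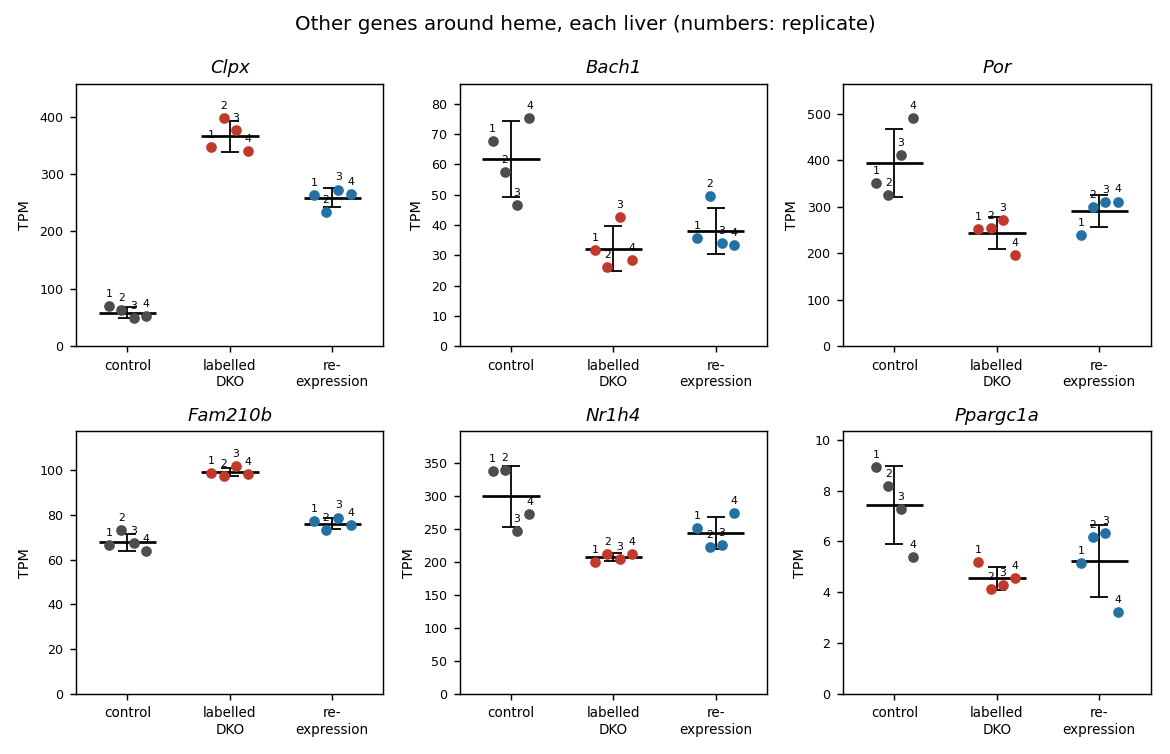
TPM of Clpx, Bach1, Por, Fam210b, Nr1h4 and Ppargc1a (vertical axes, linear from 0) in each liver of the 3 groups, with replicate numbers. Lines are means and bars SD (n = 4). Clpx runs from 48.9 to 69.9 TPM in control livers and from 340 to 398 TPM in DKO-labelled livers, with re-expressing livers between them.

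Downstream of heme breakdown, 1 of 6 bilirubin disposal genes was called lower in DKO-labelled livers, where 5.33% of all tested genes were called. It was Ugt1a1, which conjugates bilirubin, at 165 TPM in controls and 107 TPM in DKO-labelled livers (difference -0.62 ± 0.09, SE, adjusted p = 0.00207). Abcc2, the exporter of conjugated bilirubin, stood at 550 and 459 TPM (adjusted p = 0.13), and Abcc3 and Gsta3 were also not called. Of 17 tested genes of iron handling, limma called 0 in any comparison, beside 5.33%, 0.0724% and 1.82% of all tested genes. The median of the 17 was -0.10 between DKO-labelled livers and control livers. The uncalled genes of smallest p were Ireb2, Slc40a1 and Steap4. Ireb2, which encodes an iron-sensing RNA-binding protein, held 81.6, 68.4, 57.7 and 65.6 TPM in control livers and 46.4, 56.1, 50.7 and 45.9 TPM in DKO-labelled livers (adjusted p = 0.0577). The metalloreductase gene Steap4 stood at 178 and 117 TPM (adjusted p = 0.14). The iron exporter gene Slc40a1 held 138, 110, 65 and 75.5 TPM in control livers and 56.5, 59.2, 57 and 51.6 TPM in DKO-labelled livers (adjusted p = 0.0618, not called).

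Among 19 tested genes of proteins that carry heme, 4 were called higher and 1 lower in DKO-labelled livers, with a median of 0.19. Over all tested genes 5.33% were called in that comparison. The P450 genes Cyp8b1 and Cyp2a5 rose by 1.28 and 1.02, and both calls held in all 22 alternatives. Tdo2, which opens the ring of tryptophan, was higher by a called 0.45, and Cyc1, a subunit of respiratory complex III, by a called 0.42. For Tdo2 the call failed in 7 of 22 alternatives, including the omission of control liver 1, 3 or 4 and of DKO-labelled liver 1, 2 or 4. For Cyc1 it failed in 14, including the omission of any liver but control liver 4 and re-expressing liver 1. Cyp7a1, of bile acid synthesis, was the 1 called lower, and its call failed in 11, including the omission of any control liver, of DKO-labelled liver 1, 3 or 4 and of re-expressing liver 1 or 2. The uncalled genes of smallest p were Sdhc, of respiratory complex II, at 111 and 129 TPM (adjusted p = 0.0599), the catalase gene Cat (0.163) and the cytochrome c gene Cycs (0.211). Between re-expressing livers and DKO-labelled livers 0 of the 19 were called by limma, beside 0.0724% of all tested genes. Against control livers 2 were called higher in re-expressing livers, Cyp2a5 by 0.70 and Cyp8b1 by 0.94, beside 1.82% of all tested genes called. Omitting control liver 1 or 4, or re-expressing liver 4, ended the call of Cyp8b1 (adjusted p from 0.0504 to 0.0527), and both calls failed with the 8 libraries alone (0.0663 for Cyp8b1 and 0.0562 for Cyp2a5).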

How the data were processed

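RNA of 12 mouse livers was sequenced as total RNA with a stranded kit, per the labels' protocols. The deposited table holds TPM values per gene, made by the authors. Per the submitters' processing notes, bcl2fastq 2.17, STAR 2.7.1a, SAMtools 1.9, featureCounts 2.0.1, DESeq2 1.36.0 and build mm10 were used, and roles and strand settings are not given in the sources used here. A deposited table of log2 fold changes and adjusted p-values by the authors was matched to 2 comparisons by its values (r = 0.968 and 0.936 over 5236 genes). A further comparison in it matched no pair of groups and was not used. TPM times (length − 199) came out as whole multiples of 1 step per library, within 0.01 reads, which gave the depths.

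Groups were taken from the labels, which call the livers separate biological replicates. limma 3.58.1 (R 4.3.3) was fitted to log2(TPM + 1) of all 12 libraries with 3 group means and a trend in the prior variance, for 17957 genes with a mean of at least 1 TPM. Tests were two-sided with Benjamini-Hochberg adjustment over these genes, and differences on this scale understate changes of low genes. The fit was tested on simulated data with the same setting of spread for all genes and groups. That test does not cover groups of unequal spread, such as those of Alas1. Exact permutation tests were run on single values and ratios. Of the 9 genes Hmox1 had the fewest reads in a library, 68, and Uros had 94 to 178. The alternatives were other pseudocounts (0.1 and 5), other filters, size factors, quantile normalization, voom on recovered reads, a robust prior, the 8 libraries of a comparison, the replicate block and leaving out each library.

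All 9 genes are named in each comparison. From the other lists all called genes are named, with up to 3 uncalled ones of the smallest p, beside some given for their role. For Alas1 and Uros the 3 genes of closest pattern are named. A gene of these lists is not reported here. The members and lists were chosen with earlier results of these data known. The genes plotted beside the 9, the ratios and the uncalled genes given for their role were chosen after their values were seen. Gene positions are from GENCODE M21 and promoters from RefSeq.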

Additional observations from a re-analysis of the deposited data

How the results depend on the processing

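Over 22 alternatives, the 27 differences of the 9 genes gave 594 values, of which 559 kept direction and side of the threshold, 9 lost a call, 4 gained one and 22 changed sign. All those that changed sign were uncalled. Uros between DKO-labelled livers and control livers kept its call in all 22. The count of genes called lower among the 9 in that comparison went from 0 to 1, Alas1, with a mean of at least 5 TPM, with quantile normalization and with voom on recovered reads, and ran from 0 to 1 on leaving out a library. The count called higher in re-expression against control livers went from 1 to 0 with the 8 libraries alone and with the replicate block, and ran from 0 to 1 on leaving out a library. Over all genes, 958 calls between DKO-labelled livers and control livers became 559 with the 8 libraries alone and 573 to 922 on leaving out a library. Between re-expressing livers and DKO-labelled livers, 13 calls became 20 with the 8 libraries, 8 with the replicate block, 35 with voom and 5 to 15 on leaving out a library. Between re-expression and control livers, 327 became 162, 209 and 551 in the same order of settings, and 175 to 332 on leaving out a library. The causes were not tested. Signs turned with quantile normalization for Alad (-0.027, DKO against control) and Urod (0.0064, re-expression against DKO), and for Fech (re-expression against control) with size factors (-0.00011) and voom (-0.00052). Leaving out a library also turned signs between DKO-labelled livers and control livers, with ranges of -0.123 to 0.143 for Alad and -0.026 to 0.116 for Urod. Leaving out a library also turned signs between re-expressing livers and DKO-labelled livers, with ranges of -0.074 to 0.144 for Alad, -0.055 to 0.02 for Urod and -0.021 to 0.113 for Blvrb. Leaving out a library also turned signs between re-expression and control livers, with ranges of -0.1 to 0.172 for Alad, -0.044 to 0.098 for Urod, -0.0098 to 0.111 for Ppox, -0.046 to 0.06 for Fech and -0.379 to 0.05 for Hmox1. Same-numbered livers of different groups had correlations of their deviations from -0.0688 to 0.137, so the numbers were not taken to pair them. Of 20 calls of other listed genes, 7 held in all alternatives. Depth limits most Hmox1, Uros and Ppox, whose lowest counts were 68, 94 and 143 reads a library.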
